A study of Homo sapiens with 3 samples.

Results

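The replication-dependent histone genes encode the H1, H2A, H2B, H3 and H4 proteins that package newly copied DNA. They were taken as the protein-coding genes of GENCODE v44 whose symbols run from H1-1 to H1-6 or begin with H2AC, H2BC, H3C or H4C followed by a number. This rule gave 69 of 61193 genes, and 19926 of the 61193 were protein-coding. The set held 6 linker histone genes (H1), 17 H2A genes, 18 H2B genes, 13 H3 genes and 15 H4 genes. Of these, 55 lie in the large cluster on chromosome 6 (HIST1), 11 in the HIST2 cluster and 2 in the HIST3 cluster of chromosome 1, and 1, H4C16, stands alone on chromosome 12.

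Gene expression was measured in HEK293T cells, an established human embryonic kidney line that carries the large T antigen of SV40, in a study that mapped i-motifs, folded structures of C-rich DNA, in the genome of the same line. Cells were grown in DMEM with serum and harvested 24 h after seeding, and RNA from 3000000 cells was used per sample. All 3 samples are replicates of this single untreated state, which the paper describes as independent biological repeats, so no groups were compared and every value below is a description. Libraries were made from 2 µg of total RNA with a QuantSeq kit, which starts cDNA from an oligo(dT) primer and reads close to the 3′ end of each molecule, although the sample labels list the material as genomic DNA.

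Most cellular mRNAs end in a poly(A) tail. Those of replication-dependent histone genes instead end a few bases after a short hairpin, the histone stem-loop. The stem-loop is held by the stem-loop binding protein (SLBP), and the U7 small nuclear ribonucleoprotein guides the cut that forms the end. These genes have no introns in their standard form and are transcribed mainly during S phase, when chromosomes are copied. Replacement histones such as H3.3 and H2A.Z are made throughout the cycle from ordinary genes, with polyadenylated mRNAs. An oligo(dT) library therefore samples the first class through only those molecules that the primer can reach, and the amounts below are those of primed RNA and not of all histone mRNA. In bulk RNA, fewer cells in S phase and less RNA per cell cannot be told apart.

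The stem-loop is the sequence feature on which the class is defined in textbooks, and it was not used to choose the genes. The 200 bases after the stop codon were searched in GRCh38 for a 16-base hairpin that begins with GG, ends with CC, and has a loop of 4 bases that begins with TT between arms of 6 bases with at least 5 pairs, G with T included. All hits in histone genes had 6 pairs. It was found in 66 of the 69 genes (95.7%) and in 143 of 19850 other protein-coding genes (0.720%). The hairpin began 22 to 67 bases after the stop codon, with a median of 35.5 bases, and the canonical GENCODE model of 65 genes stopped 0 to 18 bases beyond it. None was found for H3C6, H4C13 and H2BC10. The genes below were chosen because they gave the highest level of their family or show a form of the hairpin, and each is written 5′ to 3′ on the sense strand with the hairpin in capitals and 5 bases of flank in lower case.
H4C3: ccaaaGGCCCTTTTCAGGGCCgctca
H4C14: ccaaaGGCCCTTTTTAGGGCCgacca
H1-2: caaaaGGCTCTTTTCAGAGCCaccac
H2AC25: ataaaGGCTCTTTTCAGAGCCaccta
H3C10: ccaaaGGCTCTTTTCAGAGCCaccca
H2BC12: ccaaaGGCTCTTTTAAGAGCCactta
H2AC20: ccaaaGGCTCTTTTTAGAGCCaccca
H2AC11: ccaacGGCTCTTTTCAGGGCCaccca

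These hairpins lie on GRCh38 at chr6:26104317-26104332 on the plus strand for H4C3, chr1:149833032-149833047 (plus) for H4C14, chr6:26055744-26055759 (minus) for H1-2, and chr1:228457369-228457384 (minus) for H2AC25. Those of H3C10, H2BC12, H2AC20 and H2AC11 lie at chr6:27810516-27810531 (plus), chr6:27146366-27146381 (minus), chr1:149887391-149887406 (plus) and chr6:27133515-27133530 (plus). All are in the 3′ untranslated region of the canonical model, which has a single exon. The form of H1-2, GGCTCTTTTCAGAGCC, was shared by 40 genes of the H1, H2A, H2B and H3 families, and the form of H2BC12, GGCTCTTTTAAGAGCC, by 9 genes of the same families. H4 genes had their own stems: 10 carried the form of H4C3, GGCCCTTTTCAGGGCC, and 4 that of H4C14, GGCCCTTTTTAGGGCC. The last 3 forms were each seen in 1 H2A gene, namely H2AC11, H2AC20 and H2AC15.

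Each library held 6262175 to 8521624 counts. Mitochondrial genes took 9.59%, 5.70% and 25.8% of the counts in replicates 1, 2 and 3, so replicate 3 stands apart, and its TPM was below the mean of the other two in 79.2% of 7361 nuclear protein-coding genes with a mean of at least 10 counts. Values are also given as nuclear CPM, that is counts per 1000000 counts with the mitochondrial genes left out. Of 9 markers of HEK293T cells, 5 were above 3 counts in every replicate (IGF2BP1, LIN28B, PAX2, LHX1 and KRT8), VIM had 0, 6 and 5 counts, and KRT18, NEFL and NEFM had none. VIM, KRT18, NEFL and NEFM have 10, 7, 2 and 6 deposited transcripts. A part of reads shared between transcripts in these low values was not tested. Of 8 markers of other cell types, the collagen genes COL1A1 and COL3A1 were above 3 counts in every replicate, the summed TPM of the list was 25.7, 26.0 and 27.9 with 769, 665 and 1230 counts, and PTPRC, CD3E, HBB, HBG1 and ALB had no count.

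Counts from replication-dependent histone genes were few but present in every replicate. The 69 genes drew 6457, 8229 and 6445 counts, which was 0.0920%, 0.131% and 0.0756% of each library. On the TPM scale, in which the count is divided by transcript length and scaled to 1000000, they summed to 2729, 4140 and 1723 TPM, or 0.286% ± 0.121 of all TPM (SD, n = 3). Replicate 2 was the highest and replicate 3 the lowest on this scale. In nuclear CPM the sums were 1018, 1394 and 1020, and replicates 1 and 3 were then alike.

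At least 1 count was found for 52 of the 69 genes (75.4%), against 63.5% of all protein-coding genes and 42.9% of all genes. More than 3 counts in every replicate were found for 33 genes (47.8%), against 39.5% of protein-coding genes and 19.8% of all genes, and a mean of at least 1 TPM for 37 genes (53.6%), against 38.2% and 21.7%. The genes are deposited with fewer transcripts than most: 56 of the 69 had 1 transcript, and 26 of these 56 (46.4%) passed 3 counts in every replicate, against 27.2% of protein-coding genes with 1 deposited transcript. A count in any replicate was found for 41 of the 56, against 43.8% of those genes. The median of the mean TPM was 1.70 for the histone genes and 0.195 for all protein-coding genes, and 5.13 and 2.27 among genes with a count. These shares lay above those of protein-coding genes at large, and the difference was not tested. The TPM values divide by transcript length, which lowers long transcripts, and length was not matched between the histone genes and the others. The part of length in the TPM differences was not tested. As CPM, with no division by length, the histone median was 1.02, and 36 histone genes in place of 37 reached 1. CPM values of all protein-coding genes are not given here. The shares based on counts do not use length. Another 19 genes had a count without passing 3 counts in every replicate, the highest of them H3C1 with a mean of 5.15 TPM.

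Summed TPM was led by H4, at 1765, 2757 and 966, followed by H1, at 520, 782 and 405. H2A genes summed to 250, 379 and 226 TPM, H2B genes to 143, 141 and 94.3 TPM, and H3 genes to 52.2, 80.6 and 31.6 TPM. This order of the families was the same in every replicate. It did not follow the number of genes: H2B, with 18 genes, was at 126 ± 27.3 TPM and H1, with 6 genes, at 569 ± 193 TPM (SD, n = 3). More than 3 counts in every replicate were seen for 3 of 6 H1 genes, 8 of 17 H2A genes, 10 of 18 H2B genes, 6 of 13 H3 genes and 6 of 15 H4 genes. In a nucleosome, the core histones stand in equal number, so the unequal sums describe primed RNA per transcript length and not protein supply.

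**Figure D1:**
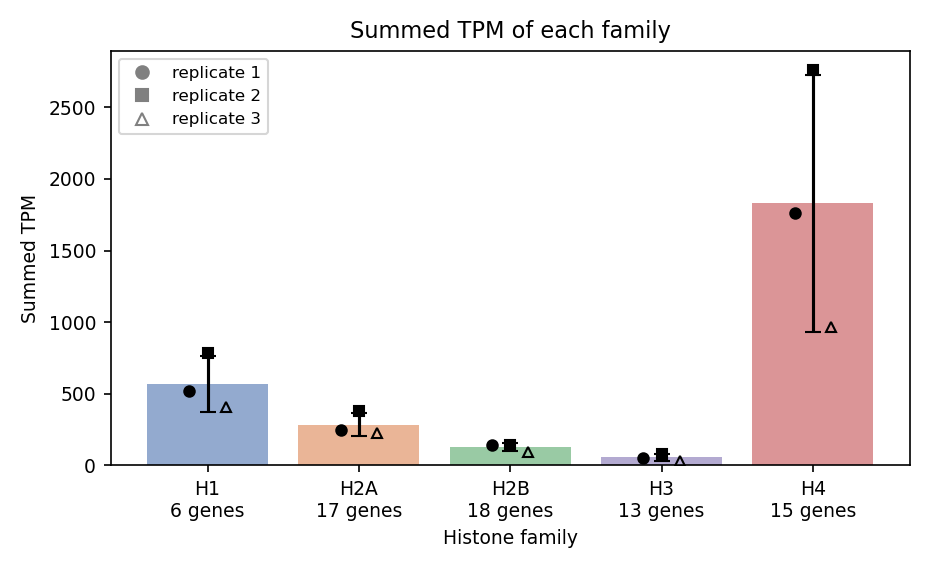
Summed TPM (vertical axis) of the 5 histone families (horizontal axis, with the number of genes), where bars are means, error bars the SD over 3 replicates, and symbols the single replicates. H4 was the highest family in each replicate, from 966 to 2757 TPM, and H3 the lowest, from 31.6 to 80.6 TPM.

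Within each family, 1 gene held much of the total. H4C3 took 96.9% ± 0.452 of the TPM of H4 genes and H1-2 90.3% ± 3.68 of that of H1 genes. H2BC12 took 49.98% ± 3.23 of the H2B total, H2AC25 49.0% ± 6.63 of the H2A total, and H3C10 36.8% ± 3.44 of the H3 total (SD, n = 3). Together the 5 genes with the highest mean TPM, H4C3, H1-2, H2AC25, H2AC20 and H2BC12, held 84.0%, 85.4% and 83.5% of all counts on the class. In every replicate H4C3 ranked first, H1-2 second and H2AC25 next by TPM. The gaps between these 3 were larger than the larger SD of each pair, whereas from H2AC20 down to the 20th gene each gap between neighbours was smaller than the larger SD.

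**Figure D2:**
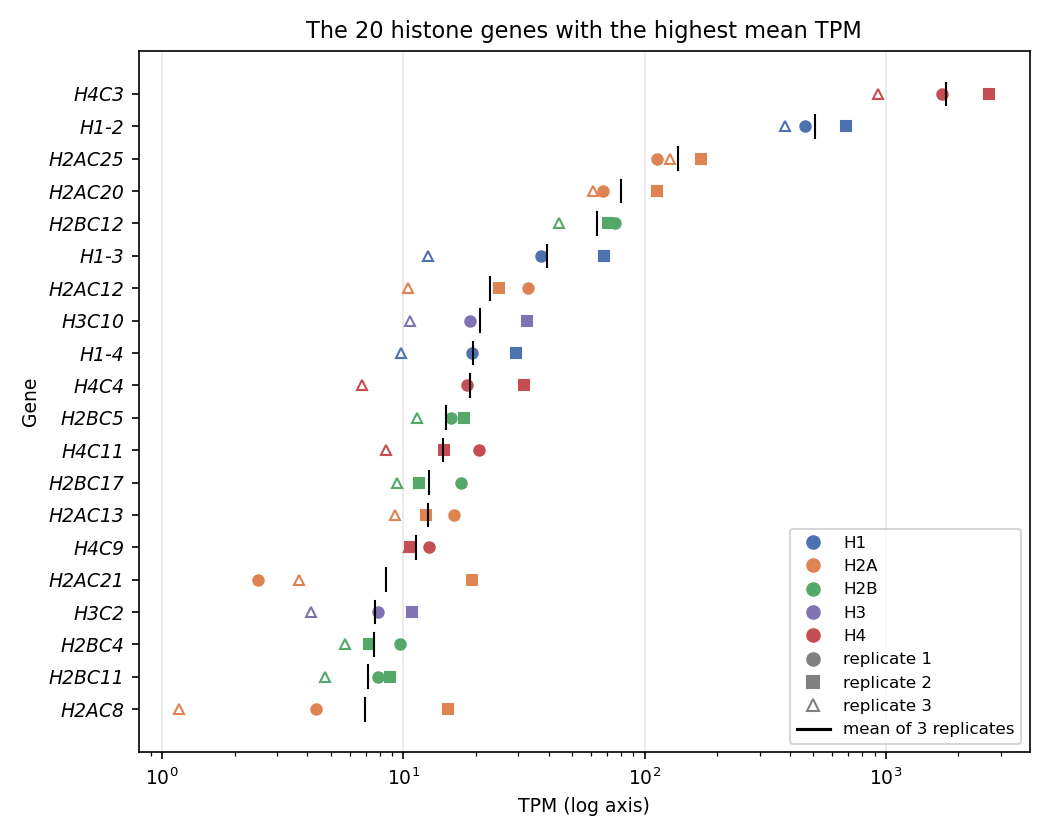
TPM on a log axis (horizontal) of the 20 replication-dependent histone genes with the highest mean (vertical), with colour for the family, symbols for the 3 replicates and a tick for the mean. H4C3, at 933 to 2687 TPM, lies above H1-2, at 383 to 684 TPM, and most genes have their lowest symbol in replicate 3.

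H4C3, on chr6:26103933-26104337 of the plus strand, encodes histone H4 and was the most abundant of the class. It had 3372, 4481 and 2707 counts and 1708, 2687 and 933 TPM. In nuclear CPM these were 531, 759 and 428. Replicate 3 was the lowest and replicate 2 the highest on every scale, and the SD over replicates was 17.6 times the Poisson SD, the widest of the 31 histone genes with a mean of at least 10 counts. The coding sequence of H4C3 shares no 75-base word with another gene.

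The other H4 genes encode the same protein in nearly every case, since the 15 genes give 2 protein sequences, and H4C7 gives the shorter. H4C4 had 26, 38 and 14 counts and 18.4, 31.8 and 6.73 TPM. H4C11 had 35, 21 and 21 counts and 20.7, 14.7 and 8.44 TPM, and all its coding words of 75 bases also occur in H4C12, which had 0, 2 and 2 counts. H4C9 had 75, 53 and 91 counts and 12.8, 10.7 and 10.5 TPM. Thus genes for an identical protein ranged from no count (H4C6, H4C16) to a mean of 1776 TPM (H4C3). The deposited model of H4C6 has 312 bases, the length of its coding sequence alone, against 401 in v44. The unspliced v44 model of H4C16 has 0 of its 412 bases outside the spliced models of that gene. The part of such differences between models in the zeros was not tested. H4C4 followed H4C3 in its order of replicates and H4C11 and H4C9 did not.

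H1-2 encodes a linker histone, which binds the DNA where it enters and leaves the nucleosome. It had 1348, 1684 and 1639 counts and 463, 684 and 383 TPM. H1-3 had 113, 174 and 56 counts and 37.4, 68.1 and 12.6 TPM, and H1-4 had 66, 85 and 49 counts and 19.3, 29.4 and 9.74 TPM. The other three H1 genes were near or at the floor: H1-5 had 1, 1 and 0 counts, and H1-1 and H1-6, the latter known from the testis, had none. All 6 H1 coding sequences had 12 to 13 A in their densest 20 bases, and codons were not counted. The range was 9 to 12 in H2A and 10 to 13 in H2B, which overlap it, and 8 to 10 in H4 and 7 to 10 in H3. The 3 H1 genes that passed 3 counts in every replicate and the 3 that did not lay in the same range, and a part of such stretches in the counts was not tested.

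H2AC25, of the HIST3 cluster, encodes an H2A protein and had 456, 590 and 764 counts and 112, 172 and 128 TPM. In nuclear CPM it stood at 71.9, 99.9 and 121, highest in replicate 3, unlike H4C3. H2AC20 had 119, 168 and 159 counts and 67.2, 112 and 61.1 TPM, and H2AC12 had 58, 37 and 27 counts and 33.0, 24.9 and 10.5 TPM. H2AC13 had 37, 24 and 31 counts and 16.2, 12.4 and 9.24 TPM, and 81.6% of its coding words occur in H2AC14, which had none. These H2A genes had no shared order of replicates.

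H2AC21 and H2AC8 were the only genes of the 20 whose SD of TPM over replicates exceeded their mean, at 8.46 ± 9.32 and 6.96 ± 7.45 TPM (SD, n = 3). H2AC21 had 6, 39 and 13 counts and 2.49, 19.2 and 3.68 TPM, and its exon overlaps BOLA1 on the other strand; whether counting used the strand is not given in the sources used here. H2AC8 had 10, 30 and 4 counts and 4.33, 15.4 and 1.18 TPM. In both, replicate 2 stood above the other replicates, by 2.14 and 2.202 on the log2 scale in nuclear CPM.

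H2B genes pair with H2A in the nucleosome, and many lie head to head with an H2A gene. H2BC12 had 131, 103 and 112 counts and 75.8, 70.5 and 44.1 TPM. H2BC5 had 56, 53 and 58 counts and 15.8, 17.9 and 11.4 TPM, H2BC17 had 30, 17 and 24 counts and 17.4, 11.6 and 9.44 TPM, and H2BC4 had 29, 18 and 25 counts and 9.70, 7.19 and 5.72 TPM. H2BC11 had 34, 32 and 30 counts and 7.89, 8.79 and 4.73 TPM. The spread of these 5 genes between replicates was near or below that of counting error alone. In nuclear CPM, the SD over replicates lay between 0.147 (H2BC5) and 1.18 (H2BC17) times the Poisson SD. Counting error is large at low counts, so a low ratio does not mean stable counts. Those of H2BC17 ran from 17 to 30. The 18 H2B genes encode 14 proteins, so most of these differ by some residue.

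H3 genes encode 2 proteins between them, which are known as H3.1 and H3.2 and differ from the replacement H3.3 at a few residues. H3C10 had 106, 155 and 88 counts and 18.9, 32.7 and 10.7 TPM. H3C2 had 18, 21 and 14 counts and 7.84, 10.8 and 4.15 TPM. Both were highest in replicate 2 and lowest in replicate 3, as H4C3 was. H3C13, H3C14 and H3C15, the genes for the second protein, had means of 5.12, 0.0302 and 0.0887 TPM, and over 70% of the coding words of H3C13 and all those of the other two occur in another gene, so a split of reads between them is uncertain.

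The 49 genes after the 20th included 32 with a count and 13 above 3 counts in every replicate. Their means ran from 0 to 6.88 TPM, reached by H2BC21. Of the 17 genes with no count, 2 were H1 genes, 5 H2A, 4 H2B, 3 H3 and 3 H4. A count of 0 allows up to 3 counts, which was 0.427, 0.479 and 0.352 CPM of all counts in replicates 1, 2 and 3, and this covers counting error only. Of 15 genes that shared over 50% of their coding words with another gene, 4 passed 3 counts in every replicate and 12 had a count, against 29 and 40 of the other 54. H4C11 and H2AC13 among the 20 highest were of these 15. By location, 26 of 55 genes of HIST1, 5 of 11 of HIST2 and both of HIST3 passed, and H4C16 on chromosome 12 did not.

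The deposited transcript models of these genes differ in length and splicing, and GENCODE v44 was used to classify them. Of the 96 deposited transcripts of the class, 31 had the length of the coding sequence alone. A further 18 were no more than 100 bases longer than the mRNA that ends at the stem-loop, 20 were longer and unspliced, and 27 were spliced to another exon. Only 28 of the 96 carry the version of v44, so the place of the extra bases is known for these and not for the rest. The 28 are the 27 spliced models and the longer unspliced model of H2AC25. No model of coding or stem-loop length, H4C3 included, is among them. Those classes rest on length and a single exon in v44, and where their models end is not known. Models of stem-loop length drew 55.4%, 57.8% and 44.7% of the counts on the class, and models of coding length 28.9%, 27.7% and 32.1%. Longer or spliced models drew 15.7%, 14.5% and 23.2%. Without H4C3, which is 1 model of stem-loop length, the share on longer or spliced models was 34.9% ± 4.43 (SD, n = 3). Genes were also sorted by their most counted model, or the longest where none had a count. Of 30 genes of coding length, 10 passed 3 counts in every replicate. For stem-loop length this was 9 of 14, for longer unspliced models 8 of 14 and for spliced models 6 of 11. The part of the models in which genes had no count was not tested.

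In nuclear CPM, models of stem-loop length summed to 564, 805 and 455, and longer or spliced models to 160, 203 and 237. Replicate 3 was thus the lowest for the first and the highest for the second. The same was looked at gene by gene in the 31 genes with a mean of at least 10 counts, sorted by their most counted model. All 9 genes of stem-loop length (H4C3, H1-4, H4C11, H2AC13, H2AC21, H3C2, H2AC8, H2BC13 and H2AC19) were lower in replicate 3 than the mean of the other replicates, with a median log2 ratio of -0.53, against 39.5% of all nuclear protein-coding genes of that depth. For 6 of the 9 replicate 3 was the lowest of the 3 replicates, against 30.7% of all such genes, where it was the highest for 52%. Replicate 2 was the highest for 7 of the 9, against 22.0% of all such genes, and this too lowers the ratio. H2AC21 and H2BC13 were higher in replicate 3 than in replicate 1. Of the 9 genes of coding length, 6 were lower, of the 8 longer unspliced genes 4, and of the 5 spliced genes 1. The medians of these 3 classes were -0.10, 0.23 and 0.05, and that of all 7361 genes was 0.12. On all counts in place of nuclear counts, the medians of the 4 classes were -0.85, -0.42, -0.09 and -0.26, with that of all genes at -0.19. This scaling moves every gene of a replicate by the same factor, but the factor differs between replicates, so the ratios do not all shift alike. The signs depend on it, and the order of the class medians was the same with nuclear counts and with all counts. On all counts and in TPM, all 9 genes of stem-loop length were lower in replicate 3, and so were all 9 genes of coding length. The shares of all 7361 genes that were lower were 64% and 79.2%. The mitochondrial share and the counts of the other cell types' markers, 769, 665 and 1230 over 8 genes with 5 at 0, were also highest in replicate 3, and their part in the result was not tested.

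**Figure D3:**
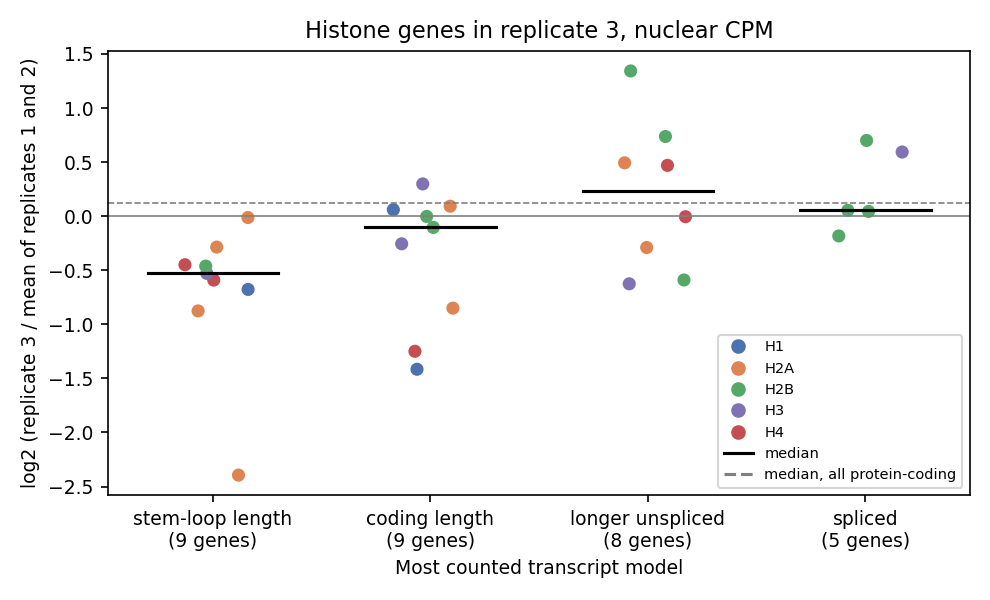
The log2 ratio of replicate 3 to the mean of replicates 1 and 2, in nuclear CPM (vertical), for 31 histone genes grouped by their most counted transcript model (horizontal), with colour for the family, a black line for the class median and a dashed line for the median of all protein-coding genes. All 9 genes of stem-loop length lie below 0, while the 8 longer unspliced genes lie on both sides.

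Longer unspliced models carried H2AC25, H3C10, H4C9, H2BC21, H2AC11, H4C5, H2BC9 and H2BC26 among the genes with a mean of at least 10 counts. The model of H2AC25 is of the v44 version and ends 390 bases past its hairpin, in a transcript of 895 bases, whereas its mRNA that ends at the hairpin is 510 bases long. For H2BC21, which had 55, 49 and 136 counts and 5.52, 5.83 and 9.29 TPM, the canonical v44 model itself ends 1729 bases past the hairpin. H2BC21 was the gene of the 31 with the highest ratio in replicate 3, at 1.34 on the log2 scale.

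For 13 genes both spliced and unspliced models were deposited, and 11 of them had counts. In 9 of the 11, the spliced models had more counts than the unspliced one in every replicate, and in H3C12 and H2BC18 the unspliced model had more in total. The sums over the 13 genes were 221, 201 and 280 counts on spliced models and 16, 20 and 27 on unspliced ones. With 3 pairs, an exact two-sided permutation test cannot go below p = 0.25, so the difference was not tested further. H2BC5 had 55, 51 and 55 counts on its spliced model and 1, 2 and 3 on the unspliced one, H2BC11 had 34, 32 and 30 and none, and H3C6 had 72, 68 and 109 and none. The unspliced models of v44 have few bases of their own here, namely 72 of 486 for H2BC5, 96 of 480 for H2BC11 and 0 of 482 for H3C6. How reads on the shared bases were assigned is not given in the sources used here.

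The spliced models of H2BC4, H2BC5, H2BC11, H2BC15 and H3C6 are of the v44 version, so the place of their ends is known. On GRCh38 they span chr6:26114873-26123910, chr6:26158146-26171349, chr6:27125897-27132750, chr6:27838601-27855709 and chr6:26224199-26227473. Those of H2BC4, H2BC5, H2BC11 and H2BC15 end 8599, 12747, 6424 and 16604 bases past the hairpin on the genome. These 4 genes are all of the H2B family, and each has 2 or 3 exons in that model.

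**Figure D4:**
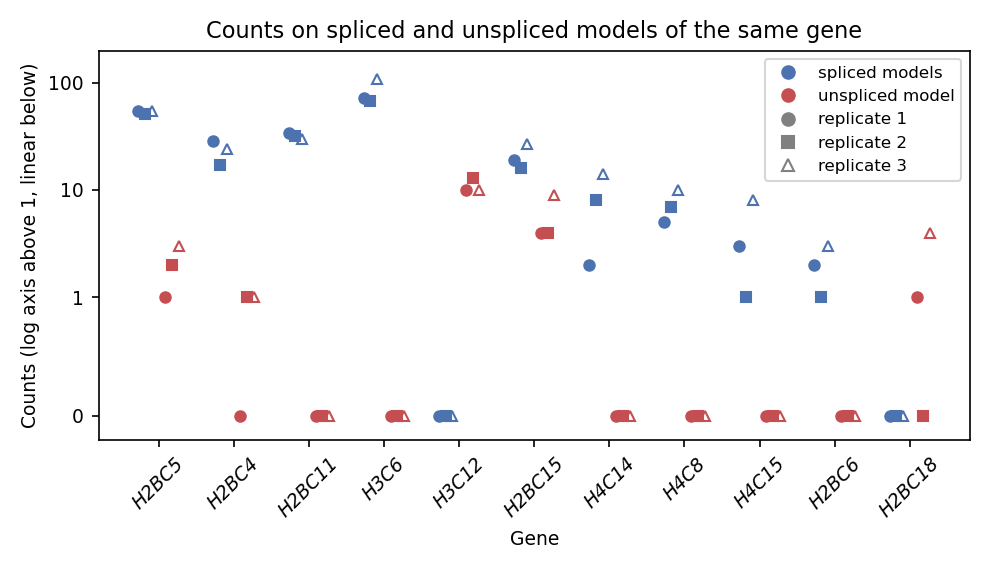
Counts (vertical, on a log axis above 1 and a linear one below) on spliced models (blue) and the unspliced model (red) of the 11 histone genes that have both and any count (horizontal), with symbols for the 3 replicates. The blue symbols lie above the red ones in 9 genes, while H3C12 and H2BC18 have 0 counts on their spliced models.

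AATAAA, the usual poly(A) signal, was looked for on the sense strand in the 300 bases after the stop codon. It was present in 9 of the 69 genes (13.0%) and in 5451 of 19850 other protein-coding genes (27.5%). The 9 were H4C3 at 233 bases after the stop codon, H1-2 at 55, H2BC5 at 64, H4C11 at 15, H2AC18 and H2AC19 at 96, H2AC16 at 269, H4C12 at 183 and H2AC17 at 155. They include both genes with the highest TPM, and 5 of them passed 3 counts in every replicate, against 28 of the other 60. The median of the mean TPM was 5.95 in the 9 and 1.17 in the 60. The median share of coding words that occur in another gene was 86.1% in the 9 and 0% in the 60. A link between the motif and the level was not tested. In H1-2, H2BC5 and H4C11 the motif lay within 64 bases of the stop codon, and for H4C11 before the hairpin. A motif match is a description of letters and not of a used site.

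Upstream of the genes, 68 RefSeq promoter windows (GRCh38.p14, 250 bases before to 50 after a start) matched 64 of the 69 genes by symbol, and H4C3 was not among those matched. TATAAA, searched on both strands as all motifs here, was present in 66.2% of the histone windows and in 11.5% of all 35116 windows. CCAAT, the core of the site of NF-Y, was present in 85.3% against 34.6%, with all windows of H1, H2A, H2B and H3 genes holding it but only 3 of 13 windows of H4 genes. ATTTGCAT, the octamer motif bound by POU2F1, was present in 39.7% against 1.77%, in 11 of 16 H2A windows and 15 of 20 H2B windows but in none of H1 or H4. Because the study mapped folded C-rich DNA, runs of 4 tracts of at least 3 C, or of 3 G for the other strand, with loops of at most 7 bases, were counted as well. They were present in 7.35% of the histone windows and 26.8% of all windows, in windows of H1-1, H3C14, H3C15, H4C6 and H4C8.

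A list of replacement and variant histone genes was given as a reference for the same libraries. Whether each of them has only polyadenylated mRNAs was not examined here. All 11 genes of the list were matched, and 8 passed 3 counts in every replicate. Their TPM summed to 3379, 3784 and 2351, which was 1.24, 0.914 and 1.36 times the sum of the replication-dependent genes. Without H4C3 the ratio was 3.31, 2.60 and 2.98. On counts, with no division by length, the ratio was 4.53 ± 0.785 (SD, n = 3). These 11 genes drew 32037, 29858 and 32310 counts.

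H1-10, a replacement linker histone, had 1656, 1955 and 1149 TPM, and H3-3B, 1 of the genes for H3.3, had 1436, 1501 and 948 TPM. Thus H1-10 and H4C3 were of the same order in TPM, and H4C3 was the higher in replicates 1 and 2 and the lower in replicate 3. On counts, with no division by length, H1-10 was the higher in every replicate. It had 11392, 11361 and 11621 counts, against 3372, 4481 and 2707 for H4C3. MACROH2A2, a histone with an additional macro domain, had 175, 185 and 150 TPM, and H2AZ2, for H2A.Z, 79.3, 95.5 and 52.8 TPM. CENPA, the H3 variant of centromeres, had 24.3, 30.1 and 34.4 TPM. H3-5 and H2AJ had means of 6.87 ± 2.195 and 5.25 ± 2.23 TPM and MACROH2A1 0.727 ± 0.187 TPM (SD, n = 3).

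Of the list, 3 genes were close to 0. H2AX, for the variant phosphorylated at broken DNA, had 2, 3 and 10 counts, H2AZ1 had 2, 4 and 1, and H3-3A, the other gene for H3.3, had 1, 0 and 2. H2AX, H2AZ1 and H3-3A had 2, 7 and 10 deposited transcripts, and a part of reads shared between them in these low values was not tested.

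**Figure D5:**
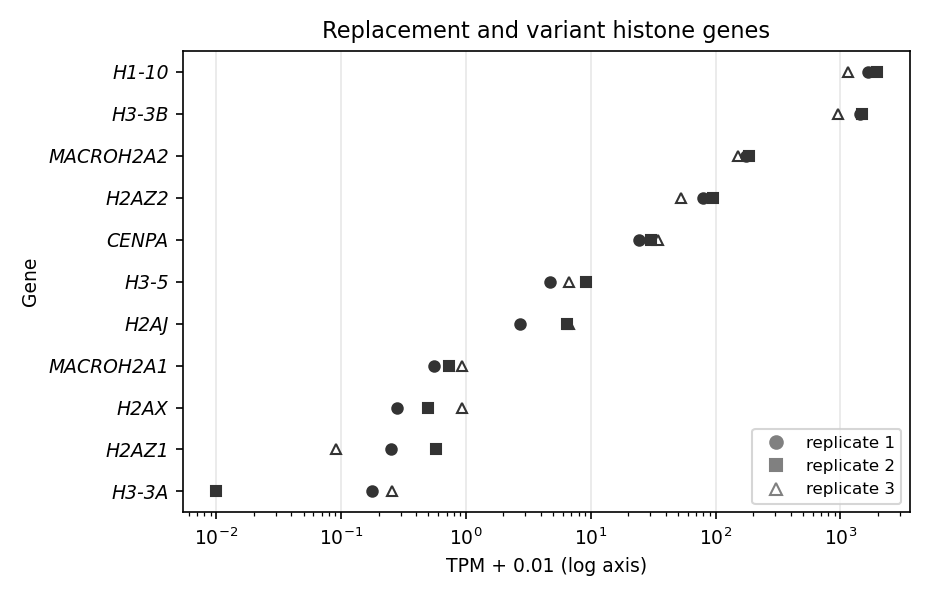
TPM plus 0.01 on a log axis (horizontal) of 11 replacement and variant histone genes (vertical), with symbols for the 3 replicates. H1-10 and H3-3B lie at 948 TPM or higher in every replicate, and H2AX, H2AZ1 and H3-3A lie below 1 TPM.

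The machinery that makes and packs these histones was measured in the same libraries. Of 23 genes for the processing and decay of histone mRNA, 15 passed 3 counts in every replicate. LSM10, a subunit of the ring of the U7 particle, was the highest, at 492, 531 and 259 TPM, and LSM11, the other U7-specific subunit, was at 34.8 ± 4.87 TPM. SNRPD3 and SNRPB, shared subunits of small nuclear ribonucleoproteins, were at 180 ± 65.3 and 92.2 ± 7.47 TPM, CSTF2T, a cleavage stimulation factor, at 107 ± 31.02 TPM, and NCBP1, of the cap-binding complex, at 51.0 ± 16.4 TPM (SD, n = 3). SLBP, which binds the hairpin, had 15, 12 and 9 counts and 1.83, 1.73 and 0.746 TPM. ERI1, an exonuclease that trims the hairpin end, had 5, 1 and 0 counts. Genes that every cell uses were also at or near 0 in this list, with 0, 1 and 2 counts for UPF1 and none for SNRPG. SLBP, UPF1 and SNRPG have 6, 13 and 9 deposited transcripts, and a part of reads shared between transcripts in these values was not tested. Low values of such genes are not read as low expression.

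Of 9 genes for transcription of histone genes, 7 passed. CDK2, the kinase that activates NPAT at the start of S phase, was at 514 ± 164 TPM, COIL, of the Cajal body, at 298 ± 92.8 TPM, YY1 at 130 ± 37.4 TPM, E2F1, a driver of S phase genes, at 83.0 ± 29.7 TPM, and NPAT, the coactivator of histone genes, at 23.9 ± 6.07 TPM (SD, n = 3). HINFP, the factor of H4 promoters, had 4.39, 1.97 and 5.16 TPM, and POU2F1 had 3, 8 and 3 counts. CCNE2 was at 3.89 ± 1.79 TPM, and CCNE1, the other cyclin of CDK2, had no count. CCNE1 has 7 deposited transcripts, and a part of reads shared between them in this value was not tested. The value is not read as low expression.

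Of 17 histone chaperone genes, 12 passed 3 counts in every replicate. SUPT16H, of the FACT complex, was at 412 ± 178 TPM, ASF1B and ASF1A, which carry H3 and H4, at 222 ± 54.1 and 117 ± 30.3 TPM, and CHAF1A and CHAF1B, which place H3 and H4 behind the replication fork, at 200 ± 56.9 and 87.9 ± 23.6 TPM (SD, n = 3). HIRA and DAXX, chaperones of H3.3, had no count, and nor had NAP1L4. HIRA, DAXX and NAP1L4 have 4, 10 and 22 deposited transcripts, and a part of reads shared between transcripts in these values was not tested. The values are not read as low expression. The medians of mean TPM were 2.72 for the processing list, 23.9 for transcription and 18.9 for chaperones, against 1.70 for the replication-dependent histone genes.

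The spread of the histone genes between replicates is given beside that of all nuclear protein-coding genes with a mean of at least 10 counts. Pearson's r of log2(TPM + 1) over the 52 genes with a count, which are not independent replicates, was 0.957 for replicates 1 and 2, 0.955 for 1 and 3, and 0.941 for 2 and 3. Spearman's rho was 0.913, 0.907 and 0.887. In the 31 genes with a mean of at least 10 counts, the median SD over replicates was 1.96 times the Poisson SD, and 16 genes were under 2 times. For all 7361 nuclear protein-coding genes with a mean of at least 10 counts the median was 2.15 times. Beyond this minimum, depth was not matched between the histone genes and these genes. H4C3, H2AC25, H1-3, H1-2 and H2BC21 stood above 5 times, a ratio that rises with depth at the same relative spread.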

How the data were processed

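The 3 HEK293T libraries each had a table of 247541 transcripts. Its counts, deposited by the authors, are unnormalized whole reads for every transcript. Its TPM, also deposited, divides that count by transcript length, another deposited column, and scales it to 1000000 per library, which was checked by recomputation. Since reads come from near the 3′ end, this division lowers long transcripts. The submitters' processing notes name Trimmomatic 0.38.0, HISAT2 2.2.1, featureCounts 2.2.1 and hg38. The annotation release and the settings for shared reads are not given in the sources used here.

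Transcript identifiers without version were matched to GENCODE release 44 on GRCh38 (223558 matched, 23983 did not and stayed only in the totals), and counts and TPM were summed per gene with Python 3.11.15, numpy 2.4.6, pandas 2.3.3, pysam 0.24.0 and matplotlib 3.10.9. The libraries held 7019253, 6262175 and 8521624 counts. The lengths of 94.0% of the matched transcripts were the same in both annotations, but no canonical transcript of the histone genes had the v44 length. Errors are SDs over 3 replicates, and the scripts were tested on simulated data. The members and lists were chosen with earlier results of these data known. Named genes are the 20 with the highest mean TPM, the listed replacement histones (1 further gene is not reported here) and the 5 highest of each other list. Others named were chosen after their values were seen. Alternatives were a replicate left out, other thresholds and scalings, mitochondrial genes or processed pseudogenes left out, and other length limits. Leaving out H4C3, counting only the longer or spliced models of the v44 version, and the comparison with genes of 1 deposited transcript were added after seeing the data.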

Additional observations from a re-analysis of the deposited data

How the results depend on the processing

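No paired analysis was possible because all samples share a single condition. With each replicate left out, 26 of 30 values moved by less than the SD over replicates or, for counts of genes, by less than 1.5 times. For the spread and the correlation, the SD was that over pairs of replicates, which are the same values as with 1 replicate left out. The spread is then an SD of 2 values in place of 3, so it is not a like measure. The ranges were 34 to 35 genes above 3 counts in every replicate, 37 to 38 genes of at least 1 TPM, 0.0838 to 0.112% of counts, 0.223 to 0.343% of TPM, a median of 1.50 to 1.79 TPM, 83.8 to 84.7% of counts in the 5 highest genes, a replacement ratio of 1.08 to 1.30, 15.1 to 19.5% on longer or spliced models, an SD of 1.56 to 1.65 times Poisson, and a mean correlation of 0.941 to 0.957. Of 31 other alternatives, 14 stayed within these bounds. A count summed over replicates above 0 gave 52 genes in place of 33, and a mean of at least 10 TPM gave 15 in place of 37. The median TPM of 1.70 became 5.13 over genes with a count, 2.35 without mitochondrial genes, and 1.02 as CPM. The share in the 5 highest genes, 84.3% of counts, was 89.6% of TPM. The replacement ratio of 1.17 became 4.53 on counts and 0.692 without H3-3A and H3-3B, which crosses 1. The share on longer or spliced models of 17.8% became 8.62% on TPM. Those of them with the v44 version held 12.1% of all counts on the class, a part of the 17.8% and so lower by construction. The SD of 1.96 times Poisson became 1.92 on all counts, and the correlation of 0.951 became 0.897 with a pseudocount of 0.1. Without H4C3, the histone genes held 0.0492% of counts and 0.109% of TPM, the 5 highest of the rest 71.9% of counts, the ratio was 2.96, and the share on longer or spliced models 34.9%. Where no construction of the alternative shows it, the cause was not tested.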

Other observations

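The values describe oligo(dT)-primed RNA of 1 line in 1 state with 3 replicates, and no comparison of conditions can be made from them. The deposited lengths of most models differ from those of the annotation, so where reads fell within a model is not known. How reads of near copies and of models nested in others were assigned is not given in the sources used here. Cell cycle stage was not analysed here.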
